A study of Solanum lycopersicum with 16 samples.

Results

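SlIDD-like1 (IDD-like1 in the files, Solyc03g098070, chromosome 3; RefSeq symbol LOC101250383 in the assembly SLM_r2.1) is 1 of the 22 target genes measured by qRT-PCR in this series, and its level was followed over all 16 groups. It was found as the target in column 1 of the second plate, and every value was set against ubiquitin on column 10 of the same plate. The other targets were 18 SlIDD genes, SlSTOP1, STF4 and CRF5. Shoots and roots of 3-week-old tomato plants of the cultivar M82 were taken 2 h and 24 h after salt (200 mM NaCl), low pH (acid water of pH 4.2) or flood (roots submerged in the potting medium), and from control plants given water in the same greenhouse. All groups thus share 1 cultivar and age, and no group carries a transgene or a deletion.

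SlIDD-like1, also known as Se3.1, acts with Style3.1 on whether the stigma stands above or inside the anther cone, a trait that decides how readily a tomato flower is pollinated by its own pollen. It belongs next to the INDETERMINATE DOMAIN (IDD) transcription factors, plant-specific zinc finger proteins named after the maize flowering gene INDETERMINATE1. Arabidopsis members pattern the root ground tissue and rice LPA1, a close relative of SlIDD-like1, sets the angle of tillers. SlIDD-like1 lacks the first of the zinc fingers that mark the family. Its levels here are from roots and shoots of seedlings, tissues without a flower.

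A group held up to 4 wells of each target. The Ct value is the PCR cycle at which the signal of a well crosses the detection line, so a lower Ct stands for more transcript and a difference of 1 cycle for a doubling under ideal amplification. SlIDD-like1 had a value in 57 of 64 wells, between 19.74 and 23.42 cycles, and ubiquitin of the same plate in 61 of 64. Over the whole series 1425 of 1536 wells had a value. The labels do not say which wells hold RNA of the same plant, and technical replicates of a sample may be among them. Each well entered singly, and a p is smaller than it should be wherever a plant gave more than 1 well. The RNA came from whole roots or shoots, and fewer cells that express a gene cannot be told apart from less transcript per cell. No gene that defines roots or shoots is among the targets, and the tissue labels were not checked by markers.

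SlIDD-like1 was detected in both tissues, under every treatment and at both times. In control shoots at 2 h its Ct was 21.34, 23.41 and 21.14, and in control roots at 2 h 23.42, 21.39 and 21.62. In both groups the well of row B thus stood about 2 cycles away from the others. Ubiquitin in row B was 16.34 in those shoots, where the other wells lay between 15.42 and 16 cycles, and 16.31 in those roots, beside 15.74 and 16.20. Control shoots at 24 h had 23.06, 22.18, 21.58 and 21.55, and control roots at 24 h 21.57, 21.29 and 21.22. The wells of the controls at 2 h were the most scattered of all, with a pooled SD of 1.19 cycles against 0.73 over all groups at 2 h and 0.42 at 24 h.

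**Figure D1:**
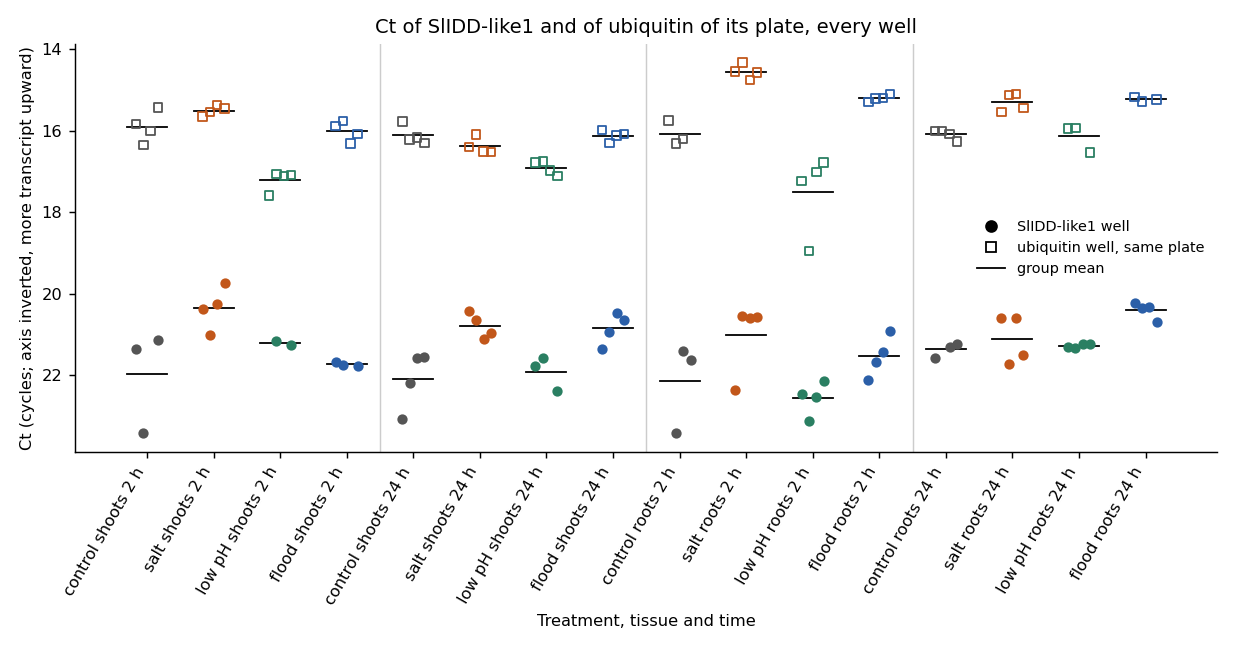
Ct in cycles (inverted axis) of every SlIDD-like1 well (filled circles) and every ubiquitin well of the same plate (open squares), by treatment, tissue and time; lines are group means. SlIDD-like1 lay between 19.74 and 23.42 cycles, with the 2 row B wells of the 2 h controls at 23.41 and 23.42.

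The level relative to ubiquitin is given as minus delta Ct, the group mean of ubiquitin minus the Ct of the well, in log2 units. The group means ran from -6.47 ± 0.89 (SD, n = 4) in salt roots at 2 h to -4.01 ± 0.06 (n = 2) in low pH shoots at 2 h, a span of 2.47. The lowest 3 groups were salt roots and flood roots (-6.33 ± 0.50, n = 4) at 2 h and control shoots at 2 h (-6.07 ± 1.26, n = 3). The highest 5 were all shoots of stressed plants: below low pH at 2 h came salt at 24 h (-4.40 ± 0.31, n = 4), flood at 24 h (-4.73 ± 0.39, n = 4), salt at 2 h (-4.83 ± 0.52, n = 4) and low pH at 24 h (-5.01 ± 0.43, n = 3). The control groups stood at -6.07, -6.06, -5.98 and -5.27, the last being roots at 24 h. Of the 15 pairs of neighbours in this order 0 passed an exact two-sided permutation test, with an unadjusted p under 0.05 or after Benjamini-Hochberg adjustment. Neighbours in an order made from the same values differ least by construction, and so few wells bound the exact p. The count therefore could hardly differ from 0 and does not test the order. In 14 of the 15 pairs the wells overlapped. In the other, flood shoots at 2 h (-5.77 to -5.66) and control roots at 24 h (-5.48 to -5.14), they did not, and the exact p of 0.1 was the smallest that 3 against 3 wells allow. These and the other exact tests of the level leave out the error of the ubiquitin means, which the limma fits include. Across roots the span was 1.41 and across shoots 2.06.

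**Figure D2:**
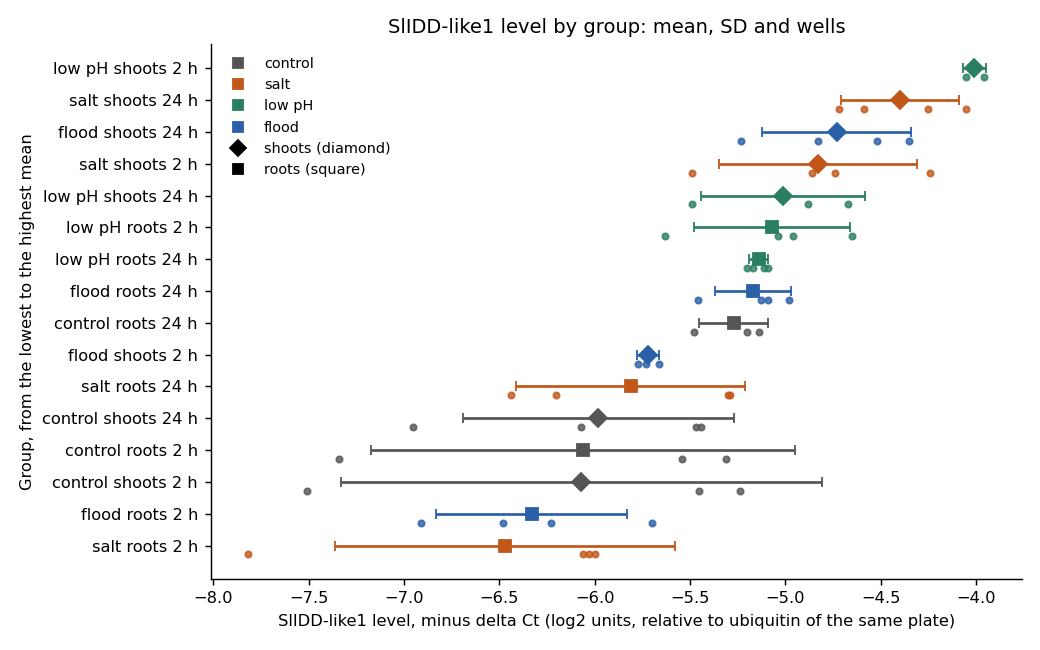
Level of SlIDD-like1 (minus delta Ct, log2 units, relative to ubiquitin of the same plate) in the 16 groups, from the lowest to the highest mean; large symbols with bars are means ± SD and small points are wells. Means run from -6.47 in salt roots at 2 h to -4.01 in low pH shoots at 2 h, and the 5 highest groups are stressed shoots.

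This span was the smallest of the 22 targets. SlIDD16, the next and named here after its values were seen, spanned 2.56, and SlIDD12 had the widest span at 8.27. SlIDD-like1 also had the smallest span with no reference (2.22 cycles) and with ubiquitin over both plates (2.15), but 5 targets had a smaller one when the mean of the targets of each plate was the reference (2.41). The plot of the spans shows all targets. Levels of different targets were not compared, since each primer pair has its own efficiency.

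**Figure D3:**
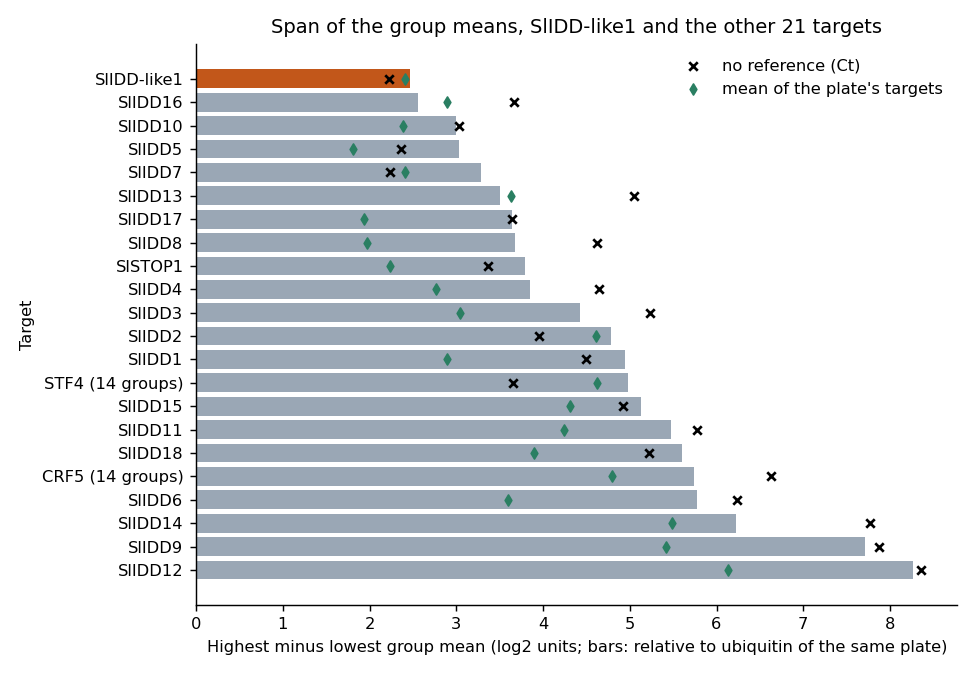
Highest minus lowest group mean of each target, in log2 units: bars relative to ubiquitin of the same plate, crosses without a reference and diamonds relative to the mean of the plate's targets; STF4 and CRF5 were measured in 14 groups. The bar of SlIDD-like1 (2.47) is the shortest and that of SlIDD12 (8.27) the longest.

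Stressed and control plants were then set against each other within a tissue and a time, which asks whether the stress altered the level of the gene. SlIDD-like1 rose in shoots at 24 h under all of salt, flood and low pH and in low pH shoots at 2 h, by 1.96-fold to 4.17-fold. It passed the test in 0 of the 6 root comparisons (limma; 0 also by an unadjusted p under 0.05), where 4 against 3 wells allow no exact p below 0.0571. All 4 calls were higher levels. With the mean of the targets of the plate as the reference 0 of 6 shoot comparisons passed. The values were then 0.23 in salt and -0.56 in flood shoots at 24 h and 1.00 and 0.11 in low pH shoots. Both low pH calls were also lost with ubiquitin over both plates (1.04 and 0.91). Salt and flood shoots at 24 h passed with ubiquitin over both plates and with no reference (1.32 and 1.26). The place of each call among the other targets is given with it, because most targets rose in shoots at 24 h.

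In salt shoots at 24 h the wells were at minus delta Ct -4.05, -4.25, -4.72 and -4.59, and those of control shoots at -6.95, -6.07, -5.47 and -5.44. Every salt well was above every control well (exact two-sided permutation test p = 0.0286, the smallest that 4 against 4 wells allow). The log2 fold change was 1.58 ± 0.37 (SE, n = 4 and 4, adjusted p = 0.00114), a 2.99-fold higher level. Of the 22 targets 81.8% were called higher in this comparison, and the other 21 had a median of 1.46. The rise of SlIDD-like1 thus stood near the middle of the targets, with 11 of the 21 below it. Row E of the controls held the lowest well (-6.95), and without row E of the gene and of ubiquitin the value was 1.02, still past the threshold (adjusted p = 0.00695).

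Flood shoots at 24 h held wells at -5.23, -4.83, -4.35 and -4.52, again all above the same control wells (exact p = 0.0286, two-sided permutation test). The log2 fold change was 1.25 ± 0.38 (n = 4 and 4, adjusted p = 0.00727), or 2.38-fold. In this comparison 95.5% of the targets were called higher, and the other targets had a median of 2.54, with 4 of 21 below SlIDD-like1. Ubiquitin had a mean Ct of 16.11 in both groups, so that the rise is also seen in the Ct of SlIDD-like1 alone, which changed by -1.26 cycles. With the control wells of roots and shoots exchanged on the second plate the value was 0.54 and did not pass.

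In low pH shoots at 24 h the wells were at -4.88, -4.67 and -5.49. The last of these lay below 2 of the control wells, and the groups overlapped. The log2 fold change was 0.97 ± 0.42 (n = 3 and 4, adjusted p = 0.0414), or 1.96-fold, among 85.0% of 20 targets called higher and a median of 2.23 for the others. Of the other 19 targets 3 stood below SlIDD-like1. The Ct of SlIDD-like1 changed by -0.18 and that of ubiquitin by 0.79, so that most of the value lay in the reference. The call was lost without row E (0.51) or row F (0.85) and with no reference (0.18). The exact two-sided permutation p was 0.171, and 3 against 4 wells allow none below 0.0571.

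In low pH shoots at 2 h, 2 wells had a value, at -3.96 and -4.05, against -5.45, -7.51 and -5.24 in the controls. These groups did not overlap, but 2 against 3 wells cannot reach an exact p below 0.2. The log2 fold change of 2.06 ± 0.72 (adjusted p = 0.0432), or 4.17-fold, was the highest of the 12, in a comparison in which 35.0% of 20 targets were called higher with a median of 0.54 for the other 19. Of those 19 targets 16 stood below SlIDD-like1. Ubiquitin was later by 1.30 cycles in the stressed wells and SlIDD-like1 earlier by 0.76. Leaving out row A (2.22) or C (2.13) ended the call, and so did ubiquitin over both plates (1.04) or no reference (0.76). Row C held no value of SlIDD-like1 in either group, so leaving it out removed only wells of ubiquitin and of other targets. Without row B, which left only the low pH well of row D, the value was 1.49.

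The other shoot comparisons were both at 2 h. Salt shoots at 2 h had wells at -4.86, -5.49, -4.74 and -4.24, and a log2 fold change of 1.23 ± 0.64 (n = 4 and 3, adjusted p = 0.191). The value was above that of 16 of the other 21 targets, 18.2% of the targets being called higher. Only the salt well of row B was not above all 3 control wells. Flood shoots at 2 h had wells at -5.66, -5.73 and -5.77 and a log2 fold change of 0.35 ± 0.61 (n = 3 and 3, adjusted p = 0.639), where 59.1% of the targets were called higher. Both rest on the scattered 2 h controls, and without row B the values were 0.86 and -0.14.

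**Figure D4:**
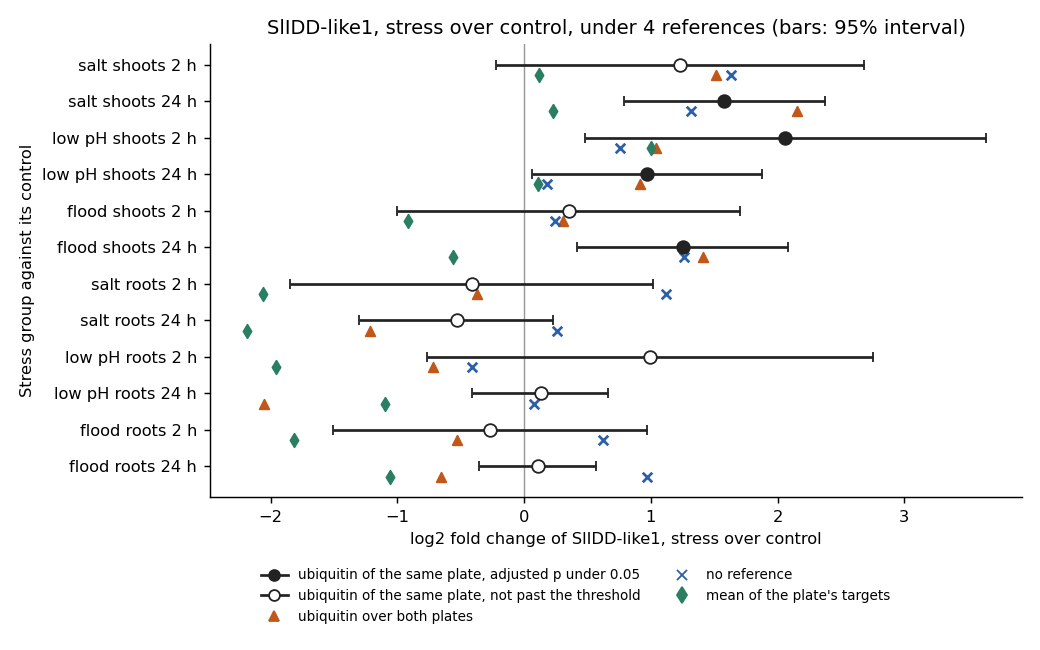
Log2 fold change of SlIDD-like1, stress over its matched control; circles with 95% intervals use ubiquitin of the same plate (filled where the adjusted p is under 0.05), and the other symbols use ubiquitin over both plates, no reference, or the mean of the plate's targets. The 4 filled circles are shoots, between 0.97 and 2.06, and the triangles for roots at 24 h lie left of the circles.

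In roots the values were small against their errors. Salt roots at 2 h had wells at -7.82, -6.00, -6.06 and -6.03, row A being far below the other 3, and a log2 fold change of -0.41 (95% interval -1.85 to 1.02, adjusted p = 0.652). At 24 h the wells were at -5.30, -6.44, -5.29 and -6.20, which formed a high and a low pair, against -5.48, -5.20 and -5.14 in the controls, and the fold change was -0.53 (-1.30 to 0.23, adjusted p = 0.197). The other 10 targets of the second plate all stood above SlIDD-like1 in both salt root comparisons, but of all other 21 targets 5 stood below it at 2 h and 6 at 24 h, and 36.4% of all targets passed at 2 h and 59.1% at 24 h.

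Low pH roots at 24 h had the tightest wells of the series, at -5.17, -5.20, -5.09 and -5.11, and a log2 fold change of 0.13 (-0.41 to 0.66, adjusted p = 0.670). This interval holds for ubiquitin of the same plate only, the value being -2.05 with ubiquitin of both plates and -1.10 with the mean of the targets. In the same comparison 63.6% of the targets passed. At 2 h the wells were at -4.96, -5.63, -5.04 and -4.65 and the value was 0.99 (-0.77 to 2.75, adjusted p = 0.264), with 63.6% of the targets called. Ubiquitin in these wells was at 17.23, 18.94, 17.01 and 16.77, the second being far later than the others.

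Flood roots had wells at -6.91, -6.48, -6.23 and -5.70 at 2 h, with a log2 fold change of -0.27 (-1.51 to 0.97, adjusted p = 0.933). At 24 h they were at -4.98, -5.13, -5.09 and -5.46, with 0.11 (-0.36 to 0.57, adjusted p = 0.710). At each time 40.9% of the targets passed. Over the 6 root comparisons SlIDD-like1 thus ranged from -0.53 to 0.99.

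The root values depended on the reference. Ubiquitin, which marks proteins for degradation and served as the only reference gene, was measured on both plates. In low pH roots at 24 h its mean Ct on the first plate fell by 3.97 cycles against the control (13.74 against 17.71), while on the second plate it differed by 0.05 (16.13 against 16.09), and SlIDD-like1 itself differed by -0.08. With ubiquitin of both plates pooled, the log2 fold change of SlIDD-like1 there was -2.05 and that of salt roots at 24 h -1.22, and both passed the test. In salt roots at 24 h the mean Ct of ubiquitin fell by 2.17 cycles (first plate) and by 0.79 cycles (second plate). With the mean of the targets of the plate as the reference, all 6 root values lay between -2.19 and -1.06 and passed. That mean includes SlIDD-like1 itself and SlIDD12, and its own error was not added to the fit. Relative to ubiquitin of the same plate SlIDD12 was at 4.13 to 8.27 in these 6 comparisons. How far SlIDD12 lowers the values of SlIDD-like1 was not tested. With no reference 1 of 6 passed (flood at 24 h, 0.97). Which reference is nearer to the true level was not tested.

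**Figure D5:**
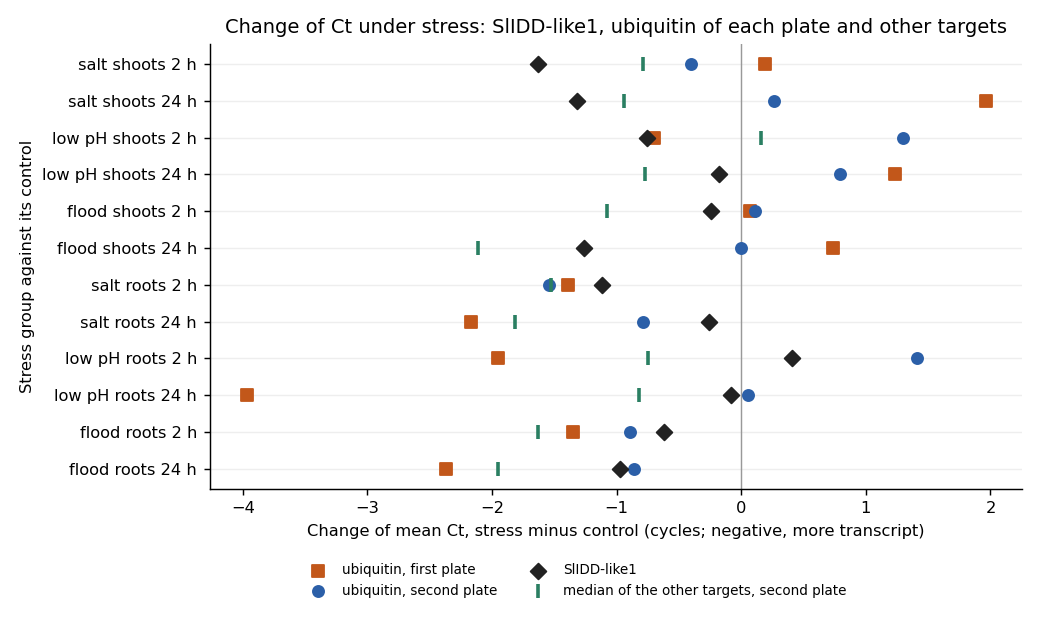
Change of mean Ct, stress minus control, in cycles, of SlIDD-like1 (diamonds), of ubiquitin on the first (squares) and second plate (circles) and, as bars, of the median of the other targets of the second plate. In low pH roots at 24 h ubiquitin changed by -3.97 (first plate) and 0.05 (second plate), and SlIDD-like1 by -0.08.

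On the second plate ubiquitin itself differed between stress and control by -1.54 to 1.41 cycles. After adjustment over the 12 comparisons 0 passed. Unadjusted, 3 had an exact two-sided permutation p under 0.05: salt roots at 24 h and low pH shoots at 2 h and 24 h. Their exact two-sided permutation p was 0.0286, the smallest that 4 against 4 wells allow. In roots at 2 h under each stress and in flood roots at 24 h the exact two-sided permutation p was 0.0571. This is the smallest that 4 against 3 wells allow. In the remaining comparisons the exact two-sided permutation p was 0.114 to 0.943. So few wells bound the exact p, so the adjusted count could hardly differ from 0 and does not show ubiquitin unchanged. In salt and flood roots the Ct of ubiquitin changed by -1.54 to -0.79 cycles, and that of SlIDD-like1 by -1.12 to -0.26. The median change of the other 10 targets of the plate was -1.95 to -1.53 cycles in these 4 comparisons.

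The tissues were compared within each treatment and time. In salt-treated plants SlIDD-like1 was lower in roots than in shoots, with a log2 difference of -1.64 ± 0.48 at 2 h (adjusted p = 0.0180; 3.12-fold lower) and of -1.40 ± 0.32 at 24 h (adjusted p = 0.00163; 2.64-fold lower). At both times the 4 root wells were all below the 4 shoot wells (exact p = 0.0286, two-sided permutation test). Among the targets 54.5% passed at 2 h and 59.1% at 24 h, and the other 21 targets had medians of -0.29 and -0.10. SlIDD-like1 was the lowest of all 22 at 2 h, and at 24 h 1 other target was lower. With no reference these differences were -0.68 and -0.32 and did not pass, ubiquitin on this plate being earlier in salt roots (14.54 and 15.29) than in salt shoots (15.50 and 16.37).

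The other tissue differences did not pass. In controls roots over shoots was 0.01 at 2 h (95% interval -1.72 to 1.73; 50.0% of the targets passed) and 0.71 at 24 h (-0.18 to 1.60; 72.7%). Under low pH it was -1.06 at 2 h (-2.41 to 0.29; 40.0%) and -0.13 at 24 h (-0.79 to 0.53; 65.0%). Under flood it was -0.61 at 2 h (-1.28 to 0.06; 72.7%) and -0.44 at 24 h (-0.95 to 0.07; 68.2%). The interval was widest in the controls at 2 h, whose wells were the most scattered.

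A direct test of whether the response to stress differed between roots and shoots passed at 24 h for salt and for flood. Roots minus shoots, the salt response differed by -2.11 ± 0.53 (adjusted p = 0.00144; 72.7% of the targets passed) and the flood response by -1.15 ± 0.48 (adjusted p = 0.0339; 86.4% passed). The other 10 targets of the second plate had medians of -0.73 for salt (2 called higher and 3 lower) and -1.22 for flood (4 higher and 5 lower), and all other 21 targets -1.77 (4 higher and 11 lower) and -2.50 (4 higher and 14 lower). The flood difference was lost without row F, G or H (-1.18, -1.20 and -1.12), and both were lost when the control wells of roots and shoots on the second plate were exchanged (-0.69 for salt and 0.27 for flood) or with no reference (-1.06 and -0.29). The flood difference was also lost with the mean of the targets (-0.50), with ubiquitin of the row, with the row as a block and in one fit over all groups. For low pH the difference was -0.84 at 24 h (75.0% of the targets passed). At 2 h the differences were -1.65 for salt (40.9%), -1.07 for low pH (40.0%) and -0.62 for flood (72.7%), and none of these 4 passed.

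Between 2 h and 24 h SlIDD-like1 rose in flooded plants, by 1.17 ± 0.26 in roots (2.24-fold, adjusted p = 0.00880) and by 0.99 ± 0.26 in shoots (1.99-fold, adjusted p = 0.0225). In roots every 24 h well was above every 2 h well (exact p = 0.0286, two-sided permutation test), and 40.9% of the targets passed. In shoots 9.09% passed, which is 2 of 22 targets, and 20 of the other 21 stood below SlIDD-like1. Low pH shoots went the other way, with a fall of 1.00 ± 0.37 on the log2 scale (adjusted p = 0.0349; 65.0% passed), where the other 8 targets of the second plate had a median of -0.44 and all other targets one of 1.09. All 3 lost their call in one fit over all groups (adjusted p = 0.0510, 0.320 and 0.128) and with the well row as a block (adjusted p = 0.0555, 0.0879 and 0.0954). Each also lost it in at least 1 fit without a row: flood roots without row B and F (1.08), flood shoots without B and F (0.87) or D and H (0.93), and low pH shoots without A and E (-0.90), B and F (-1.13) or D and H (-0.92). The flood rise in shoots was also lost with ubiquitin over both plates (0.74) and with the mean of the targets (0.46). Its exact two-sided permutation p was 0.0571, the smallest that 4 against 3 wells allow. The fall in low pH shoots was also lost with both plates (-0.49), the mean of the targets (-0.79) or no reference (-0.70). The flood rise in roots passed with each of these references (1.24, 1.11 and 1.14). In controls the change over time was 0.79 in roots (31.8% of the targets passed) and 0.09 in shoots (18.2%), and in salt plants 0.67 in roots (4.55%) and 0.43 in shoots, where 0 targets passed. In low pH roots it was -0.07 (13.6%). These 5 values of SlIDD-like1 did not pass.

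Whether the response to stress differed between 24 h and 2 h was also tested, and 0 of 6 differences passed (limma; 0 also by an unadjusted p). They ranged from -1.09 in low pH shoots to 0.90 in flood shoots, and 18.2% to 50.0% of the targets passed in these 6 tests. A rise in shoots called at one time only is therefore not shown to differ from that at the other time.

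The 3 stresses were compared with each other in the same tissue and time. Of 12 such pairs 1 passed: at 2 h SlIDD-like1 was higher in low pH shoots than in flood shoots, by 1.71 ± 0.27 (n = 2 and 3 wells, adjusted p = 0.000514; 55.0% of the targets passed). With ubiquitin over both plates it was 0.73 and with no reference 0.52, and neither passed. With the mean of the targets it was 1.92 and passed. The mean Ct of ubiquitin on the second plate was 17.2 in low pH and 16.01 in flood shoots, and that of SlIDD-like1 21.21 and 21.73. The exact two-sided permutation p was 0.2, the smallest that 2 against 3 wells allow. In the other 11 pairs 13.6% to 70% of the targets passed, among them 45.5% in salt over flood in roots at 24 h and in shoots at both times. Salt roots were below low pH roots with no overlap of wells at 2 h (-1.41) and at 24 h (-0.66), but neither passed the fit (adjusted p = 0.117 and 0.135, with 13.6% and 27.3% of the targets called). The Ct of SlIDD-like1 alone was earlier in salt roots (21.02 against 22.56 at 2 h, 21.1 against 21.27 at 24 h). The direction thus rested on ubiquitin of the second plate (14.54 against 17.49 and 15.29 against 16.13). On the first plate ubiquitin was later in salt roots (15.11 against 14.55 and 15.55 against 13.74).

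The 4 partners of SlIDD-like1 by homology or duplication were set beside it, each relative to ubiquitin of its own plate. SlIDD12, a close homologue measured on the same plate, was higher in 11 of 12 stress comparisons, among them all 6 in roots. It was higher in 10 with ubiquitin over both plates, in 8 with no reference and in 7 with the mean of the targets. All 6 in roots were among them each time. Its log2 fold changes were 6.82 in salt, 8.27 in low pH and 6.66 in flood roots at 2 h. SlIDD-like1 in those 3 was at -0.41, 0.99 and -0.27. In salt shoots at 2 h the order was the opposite, SlIDD12 standing at -0.16 (adjusted p = 0.847) and SlIDD-like1 at 1.23. The difference between the genes was not tested.

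SlIDD5, known as OBSCURAVENOSA for its part in forming bundle sheath extensions in leaves and mutated in M82, passed in 8 comparisons, higher in 4 of shoots and lower in 4 of roots. The direction depended on the reference. With ubiquitin over both plates it passed in 4, all higher and in shoots. With the mean of the targets it passed in 3, all lower and in roots. With no reference it was higher in 6, 3 of them in roots, and lower in 0. Relative to ubiquitin of its own plate it was at 2.18 and 2.75 in shoots at 24 h under salt and flood. SlIDD9, the partner of SlIDD-like1 in a duplicated chromosome segment, was higher in 5 and lower in 2, from -5.66 in salt shoots at 2 h to 4.15 in low pH shoots at 24 h. SlIDD3, a further duplicate, was higher in 7 and lower in 1. With the mean of the targets SlIDD9 was higher in 6 and lower in 2, and SlIDD3 higher in 6 and lower in 5. SlIDD5, SlIDD9 and SlIDD3 lie on the first plate, whose ubiquitin differs from that of SlIDD-like1 in the way given above.

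Counting calls over the 12 stress comparisons, SlIDD-like1 passed in 4. Only SlIDD16 passed in fewer (3), 2 other targets passed in 4, and the rest in 6 or more. The median size of its log2 fold changes, without regard to sign, was 0.75, the third smallest of the 22. With ubiquitin over both plates 3 targets passed in fewer than its 4. With the mean of the targets as the reference it passed in 6, all lower and all in roots, 9 targets passed in fewer, and its median size ranked 13 from the smallest.

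The targets whose group means followed those of SlIDD-like1 most closely over the 16 groups were SlIDD17 (Pearson r = 0.60), SlIDD15 (0.54) and SlIDD8 (0.43), and SlIDD14 was the least like it (-0.29). These are descriptions with no test: the points share control groups, plates and reference. SlIDD17 and SlIDD15 share the plate and the ubiquitin wells of SlIDD-like1, and SlIDD8 does not. Without a reference r was 0.66 for SlIDD17, 0.65 for SlIDD15 and 0.02 for both SlIDD8 and SlIDD14. With the mean of the targets it was 0.46, 0.30, -0.03 and -0.37. The first and last places then went to other targets, named after their values were seen: with the mean of the targets SlIDD10 (0.55) and SlIDD7 (0.48) were the most alike and SlIDD12 (-0.44) the least, and with no reference SlIDD9 (-0.34) was the least. Like SlIDD-like1, SlIDD17 and SlIDD15 stood lower in control shoots (SlIDD17 at -5.59 and -6.11, SlIDD15 at -8.36 and -6.71 at 2 h and 24 h) than in shoots under any stress. Most targets shared this at 24 h, where 81.8% were called higher in salt, 85.0% in low pH and 95.5% in flood shoots. For SlIDD-like1 the difference in flood shoots at 2 h was 0.35 and did not pass.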

How the data were processed

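Transcripts were measured by SYBR Green qRT-PCR. The deposited values used here, Ct in cycles per well, had not been normalized by the authors; the authors' normalized and fold sheets were not used. Stress and tissue follow titles and source names; the characteristics conflict for some samples and were not used. By the labels a plate is a time, 2 h first and 24 h second. Here the upper well rows (A to D) of either plate were taken as 2 h and the lower (E to H) as 24 h. Columns were assigned to genes by matching the study's fold tables after the values were seen, which is no independent evidence. For this match the folds were taken relative to ubiquitin over both plates. Of 12 folds of SlIDD-like1, 7 lay within 0.05 log2 at its column and at most 2 at any other. The match does not show that the folds given above, relative to ubiquitin of the same plate, equal the study's. That column is labelled ubiquitin in the sheet, and column 10 is labelled IDD9. Of 1425 wells with a value, 1403 were used; wells of 3 irregular lines were left out on the first plate and read in plate order on the second, including row H of ubiquitin in the 24 h groups. 0 sample columns were left unmapped. No sequence was printed, and the qRT-PCR sheet names no genome build.

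Minus delta Ct (ubiquitin group mean of the same plate minus Ct) was fitted per comparison over all targets with lmFit and eBayes of limma 3.58.1, run in R 4.3.3. The variance of the ubiquitin means was added and the degrees of freedom follow Satterthwaite. With the mean of the targets as the reference no variance of that mean was added. Two-sided p-values were adjusted by Benjamini-Hochberg over the targets of each comparison (threshold 0.05). SlIDD-like1 was compared in 52 ways: stress (12), tissue (8), time (8), stress by tissue (6), stress by time (6) and stress pairs (12). Exact permutation tests used scipy 1.17.1; tables and figures used Python 3.11.15, numpy 2.4.6, pandas 2.3.3 and matplotlib 3.10.9. The fit was also run on simulated wells for salt shoots and low pH roots at 24 h, drawn independently and with ubiquitin unchanged. Such wells cannot test the effect of shared plants or of a shifting reference. Named genes were the partners by homology or duplication that the study gives (SlIDD12, SlIDD5, SlIDD9, SlIDD3), the 3 targets most and the 1 least like SlIDD-like1 by Pearson r, and ubiquitin. The gene and the lists were chosen with earlier results of these data known. Alternatives were other references, the well row as a block, each row left out, one fit over all groups, the exact test, other p adjustments, and control wells of roots and shoots exchanged on the second plate; leaving irregular wells out on both plates, and likeness without a reference, were added after seeing the data.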

Additional observations from a re-analysis of the deposited data

Results flagged for a closer look

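A well of SlIDD-like1 in salt roots at 2 h stood at a minus delta Ct of -7.82, with the other 3 wells between -6.06 and -6.00, and a ubiquitin well of the second plate in low pH shoots at 2 h stood at a Ct of 17.58, with the others between 17.05 and 17.10. In each the gap to the nearest well took most of the range of the group. Of 23 groups of 4 wells examined 2 held such a well, and chance gives about 1 in 20. The response of SlIDD-like1 at 24 h differed between roots and shoots under salt (-2.11, roots minus shoots) and under flood (-1.15), by the interaction test of limma.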

How the results depend on the processing

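The rises in salt and flood shoots at 24 h kept their direction and stayed past the threshold under every other p adjustment, row left out, one fit over all groups, the exact test, ubiquitin of both plates, of the row, or none; they were lost with the mean of the plate's targets (0.23 and -0.56), and flood also with controls exchanged (0.54). The cause of each change below was not tested unless the alternative's own construction (fewer wells) gives it.

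Log2 fold changes of stress over control that turned or crossed the threshold were these. With ubiquitin over both plates: roots at 24 h under salt -1.22, low pH -2.05, flood -0.66, low pH roots at 2 h -0.72, low pH shoots 1.04 at 2 h and 0.91 at 24 h. With the mean of the targets: roots at 2 h and 24 h -2.06 and -2.19 (salt), -1.96 and -1.10 (low pH), -1.82 and -1.06 (flood), low pH shoots 1.00 and 0.11, flood shoots at 2 h -0.92. With no reference: salt roots 1.12 and 0.26, low pH roots at 2 h -0.41, flood roots 0.62 and 0.97, low pH shoots 0.76 and 0.18. With controls exchanged: salt roots 0.18 and low pH roots 0.84 at 24 h, low pH shoots 2.05 and 0.26. Low pH shoots at 24 h were lost with row ubiquitin (0.95), with one fit and with adjustment over all comparisons (both 0.97), and by the exact test, which also lost 2.06 at 2 h, though their wells allow no exact p below 0.0571 and 0.2. Salt shoots at 2 h passed in one fit (1.23). Without irregular wells low pH roots at 24 h had -0.01, the only result of 36 that changed.

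Same-row deviations of 460 pairs of groups had correlations over targets from -0.83 to 0.80, with a median of 0.01. These correlations cannot show whether wells of the same row within a group share a plant. With the row as a replicate block 5 of 12 stress comparisons passed, salt shoots at 2 h being added (1.28) and salt roots at 2 h turning to 0.12; 0 time differences, 1 roots-minus-shoots difference and 2 stress pairs passed. The block could not be fitted for control roots over shoots at 2 h or control roots over time.

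Leaving out 1 row at a time gave these ranges at 2 h and 24 h: salt roots -1.02 to -0.13 and -0.91 to -0.29, salt shoots 0.86 to 1.48 and 1.02 to 1.84, low pH roots 0.17 to 1.58 and 0.05 to 0.22, low pH shoots 1.49 to 2.40 and 0.51 to 1.39, flood roots -0.75 to 0.13 and -0.05 to 0.33, flood shoots -0.14 to 0.65 and 1.03 to 1.44. Calls numbered 2 to 4 of 12 (stress), 2 to 3 of 8 (tissue), 0 to 3 of 8 (time), 1 to 2 of 6 (roots minus shoots), 0 of 6 (24 h minus 2 h) and 1 of 12 (stress pairs). A group left with 1 well was assumed to vary like the others. Control roots over shoots at 2 h ranged from -0.39 to 0.46 and low pH roots over shoots at 24 h from -0.51 to 0.11.

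Tissue differences that turned were control at 2 h (-0.05 with row ubiquitin, -0.18 with none, -0.01 exchanged), control at 24 h (-0.71 exchanged), flood at 24 h (0.00 with both plates, 0.43 with the mean of targets, 0.45 with none), flood at 2 h (0.20 with none) and low pH at 24 h (0.64 with none). Responses of roots minus shoots that turned were low pH at 24 h (0.58) and flood at 24 h (0.27) exchanged, and flood at 2 h (0.38) with none. Counts of calls against 4 stress, 3 time, 2 roots-minus-shoots and 1 pair were: both plates 1 time and 3 pairs, row ubiquitin 1 roots-minus-shoots and 3 pairs, mean of targets 6 pairs, no reference 0 roots-minus-shoots and 6 pairs, one fit 0 time and 3 pairs, exchanged 2 stress and 0 roots-minus-shoots, exact test 2 stress, 1 time and 3 pairs, unadjusted p 2 pairs. The correlation with SlIDD8 turned to -0.03 with the mean of targets and that with SlIDD14 to 0.02 with no reference.

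At most 4 wells per group and 2 in low pH shoots at 2 h limit the precision, and the plate layout rests on a match to the study's own tables.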
